A study of Mus musculus with 30 samples.

Results

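Transcripts of 10 serotonin receptor genes, Htr1a, Htr1b, Htr1f, Htr2a, Htr2c, Htr3a, Htr4, Htr5a, Htr6 and Htr7, were followed across 30 bulk RNA-sequencing libraries of mouse prefrontal cortex. The genes were taken by name, and all 10 had a row among the 18240 genes of the table. The tissue came from C57BL/6J mice at postnatal day 40 that carried both Adnp alleles (wild type, WT) or were heterozygous (HT). Adnp encodes a chromatin protein and is mutated in a syndromic form of autism in people. The 8 groups were WT vehicle (4 female and 4 male libraries), HT vehicle (4 and 3), HT fluoxetine (4 and 4) and HT lithium (3 and 4). No WT library received a drug, so that drug comparisons were made within HT libraries. Fluoxetine is an inhibitor of serotonin reuptake and lithium a mood stabilizer; no source used here gives their dose, their duration, the vehicle or the lesion of the mutant allele. The labels number the replicates without saying that each was a separate mouse, so the p-values reflect spread among libraries, which may be technical.

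Serotonin released by axons of the raphe nuclei acts in the cortex on several receptor families. The products of Htr1a, Htr1b, Htr1f and Htr5a couple to inhibitory Gi/o proteins and lower cyclic AMP, those of Htr2a and Htr2c couple to Gq and phospholipase C, and those of Htr4, Htr6 and Htr7 couple to Gs and raise cyclic AMP. Htr3a encodes the subunit of a ligand-gated cation channel and, in the cortex, marks a class of inhibitory interneurons. Htr2a is known from pyramidal neurons of the cortex, and Htr1b, Htr2c, Htr4 and Htr6 are also known from neurons of the striatum. Fluoxetine raises extracellular serotonin, the ligand shared by all these receptors. The comparisons ask whether the receptor transcripts differed with the Adnp genotype or with either drug.

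Libraries held 23771758 to 34307061 reads, and values are read counts normalized to library size. As a check on the genotype labels, the summed count of Adnp and the overlapping gene Gm20716 was 3404 to 3887 in the 22 HT libraries and 4226 to 4433 in the 8 WT libraries. Adnp by itself ran against the labels, with a mean of 2251 ± 137 in HT vehicle (SD, n = 7) and 1898 ± 157 in WT vehicle libraries (SD, n = 8), in ranges that overlapped. The lower sum in HT libraries came from Gm20716, at 1049 to 1850 in HT and 2167 to 2622 in WT libraries. Reads of these overlapping genes may be split between them, so WT and HT stand throughout for libraries labelled so, and every genotype direction rests on those labels. The 14 markers of excitatory neurons, among them Slc17a7 and Neurod6, were listed in every library and summed to 128298 to 194504. Libraries also held markers of neighbouring regions at levels that varied widely. The 16 markers of striatal medium spiny neurons summed to 8587 to 57969, and the 13 markers of olfactory bulb and neuroblasts to 5097 to 30709. HT lithium male 4 stood apart, with the lowest excitatory and the highest olfactory, meningeal and endothelial marker scores of all libraries. Results were therefore also computed without this library and HT vehicle female 1, the pair with the smallest summed normalized counts. In bulk tissue, fewer cells of a type and less RNA per cell cannot be told apart.

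Htr2a was the most abundant receptor transcript per length of exon and Htr4 the least. In WT vehicle libraries Htr2a, a receptor of pyramidal neurons, stood at 293 ± 26.0 normalized counts per kb of exon (SD, n = 8). Htr1a followed at 138 ± 19.7, Htr5a at 133 ± 10.6 and Htr2c at 126 ± 37.0. Neighbours among these last 3 overlapped in their ranges, and Htr1a exceeded Htr5a in only 13 of 30 libraries. The next were Htr3a (76.7 ± 12.4 per kb), Htr1b (71.3 ± 15.7), Htr6 (55.8 ± 8.27) and Htr7 (53.5 ± 5.04), whose neighbouring ranges overlapped as well. Htr1b nevertheless exceeded Htr6 in 30 of 30 libraries. At the lower end stood Htr1f (36.8 ± 3.40 per kb) and Htr4 (7.90 ± 5.85 per kb). The gaps between Htr2a and Htr1a (2.13-fold), Htr7 and Htr1f (1.46-fold) and Htr1f and Htr4 (4.65-fold) left no overlap of WT vehicle ranges. The first 2 of these orders held in 30 of 30 libraries and the last in 29 of 30. Exon length counted all annotated exons of a gene, so the order of receptors depends on that length. By count alone Htr2c, with 9328 exon bases, averaged 1173 in WT vehicle libraries, above Htr5a (713) and Htr1a (618).

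**Figure D1:**
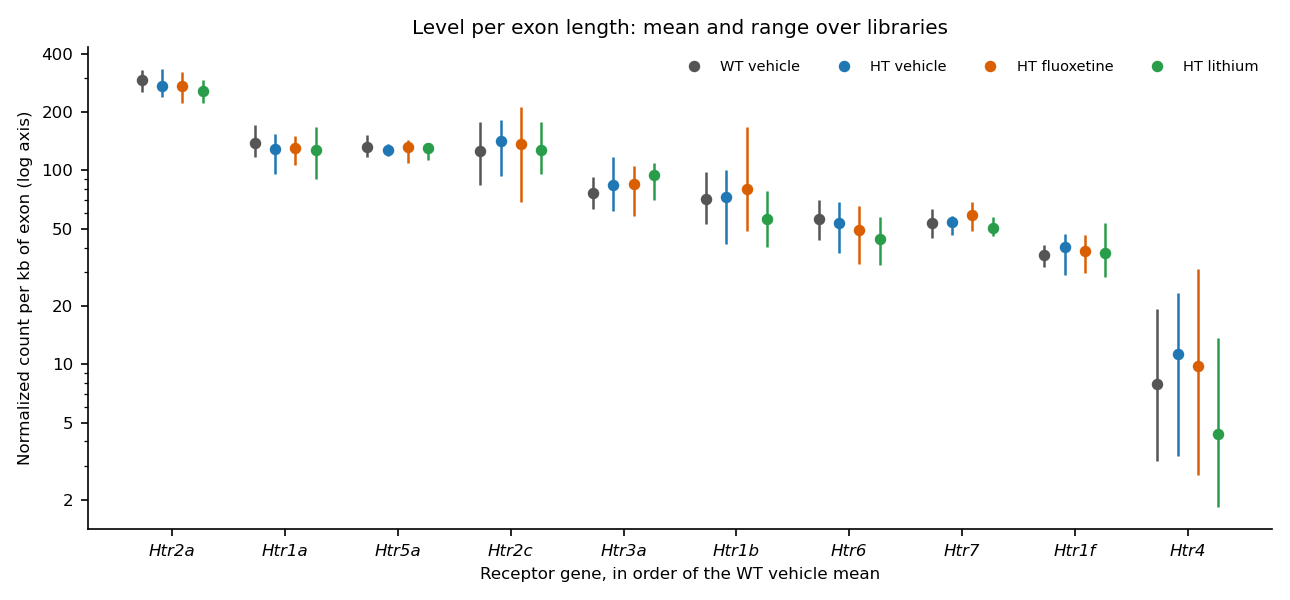
Normalized count per kb of exon (log axis) for each receptor gene, ordered by the WT vehicle mean; points are means and lines run from the lowest to the highest library of each condition. The mean of Htr2a lies above and that of Htr4 below the means of the other genes in every condition. Lines of Htr4 are the longest of these genes, and with fluoxetine they reach 31.0, above the lowest Htr1f library at 29.5.

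The receptors differed widely in their spread between libraries. Htr5a, an inhibitory receptor of the forebrain, was the steadiest, at 589 to 818 normalized counts over all 30 libraries, a coefficient of variation of 7.22%. Htr2a and Htr7 had coefficients of 10.8% and 11.4%, and Htr1a and Htr1f of 15.2% and 16.4%. The remaining receptors were more variable, from 19.5% for Htr3a and 21.2% for Htr6 to 30.3% for Htr2c and 38.1% for Htr1b. Htr4 varied most, from 9.0 to 152, a 16.9-fold range and a coefficient of 93.1%. On the log2 scale the SD within groups was 1.07 for Htr4, larger than that of 98.8% of the 16824 genes tested. It was 0.47 for Htr2c and 0.41 for Htr1b, against a median of 0.13 over all genes. Counting alone would give Htr4 a coefficient of 15.6% at its mean, so that most of its spread lay above counting error.

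The proximal promoters of 4 receptors are shown because 3 of them, Htr1b, Htr2c and Htr6, varied together across libraries while the fourth, Htr2a, did not follow them (described below for all 30 libraries). RefSeq promoters of build GRCm38.p6 matched 8 of the 10 receptors, not Htr3a or Htr4. Each sequence runs 5′ to 3′ on the strand of the gene over 200 bases, from 250 to 51 bases before the RefSeq start. The windows are chr9:81633883-81634082 (minus strand), chrX:146962263-146962462 (plus strand), chr4:139075621-139075820 (minus strand) and chr14:74640624-74640823 (plus strand). Capitals mark a GC box (GGGCGG or its complement CCGCCC) or a CCAAT box (CCAAT or its complement ATTGG).
Htr1b: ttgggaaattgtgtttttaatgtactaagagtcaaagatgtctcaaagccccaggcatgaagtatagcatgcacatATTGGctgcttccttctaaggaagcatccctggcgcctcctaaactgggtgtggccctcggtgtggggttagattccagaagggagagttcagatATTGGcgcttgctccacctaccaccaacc
Htr2c: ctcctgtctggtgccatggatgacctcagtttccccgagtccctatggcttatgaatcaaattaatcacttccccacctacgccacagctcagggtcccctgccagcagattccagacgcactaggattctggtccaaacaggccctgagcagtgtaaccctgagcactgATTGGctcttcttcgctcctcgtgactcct
Htr6: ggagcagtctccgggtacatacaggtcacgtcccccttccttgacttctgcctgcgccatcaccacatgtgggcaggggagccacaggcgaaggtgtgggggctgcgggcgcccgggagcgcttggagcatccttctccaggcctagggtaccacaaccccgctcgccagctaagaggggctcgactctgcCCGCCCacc
Htr2a: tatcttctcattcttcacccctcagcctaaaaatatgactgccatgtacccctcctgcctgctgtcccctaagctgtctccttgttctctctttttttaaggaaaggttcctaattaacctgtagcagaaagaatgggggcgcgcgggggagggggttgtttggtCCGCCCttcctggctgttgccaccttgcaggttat
A CCAAT box was found 2 times for Htr1b and 1 time for Htr2c, and a GC box 1 time each for Htr6 and Htr2a. Of 32851 promoter windows of this length, 28.4% held a CCAAT box and 24.6% a GC box. Htr1a also held 1 GC box, and Htr7 held 1 core of the cyclic AMP response element (TGACG or CGTCA), which 12.7% of windows held. No window of the 8 receptors held TATAAA or its complement, against 9.14% of all windows. The windows end 51 bases before the start, so a TATA box nearer the start was not searched for. Motifs did not overlap one another, and matches are given as letters only. The 3 receptors that varied together shared none of these 4 motifs in common.

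No receptor transcript was called in any comparison at an adjusted p under 0.05 with limma, adjusted over the 16824 genes tested. For HT vehicle against WT vehicle this was 0 of 10 receptors, where 0.731% of all genes were called. For HT fluoxetine against HT vehicle it was 0 of 10 against 0.0357%, and for HT lithium against HT vehicle 0 of 10 against 0.0892%. With so few genes called, 0 of 10 lies close to the background of each comparison. At an unadjusted p under 0.05, 0 of 10 receptors passed for genotype (6.6% of all genes), 0 for fluoxetine (2.63%) and 1, Htr4, for lithium (5.72%). In no case did the ranges of 2 conditions separate for a receptor, as they did for 0.452% of all genes between genotypes, 0.0535% for fluoxetine and 0.0773% for lithium. The median log2 difference over the 10 receptors was 0.03 for genotype, 0.00 for fluoxetine and -0.12 for lithium, beside 0.00 for all genes tested in each. Under lithium 8 of the 10 estimates were negative. The fluoxetine and lithium comparisons share the HT vehicle libraries, and the genotype comparison shares them too. edgeR and DESeq2, run on the recovered reads, also called 0 of 10 receptors in every comparison.

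**Figure D2:**
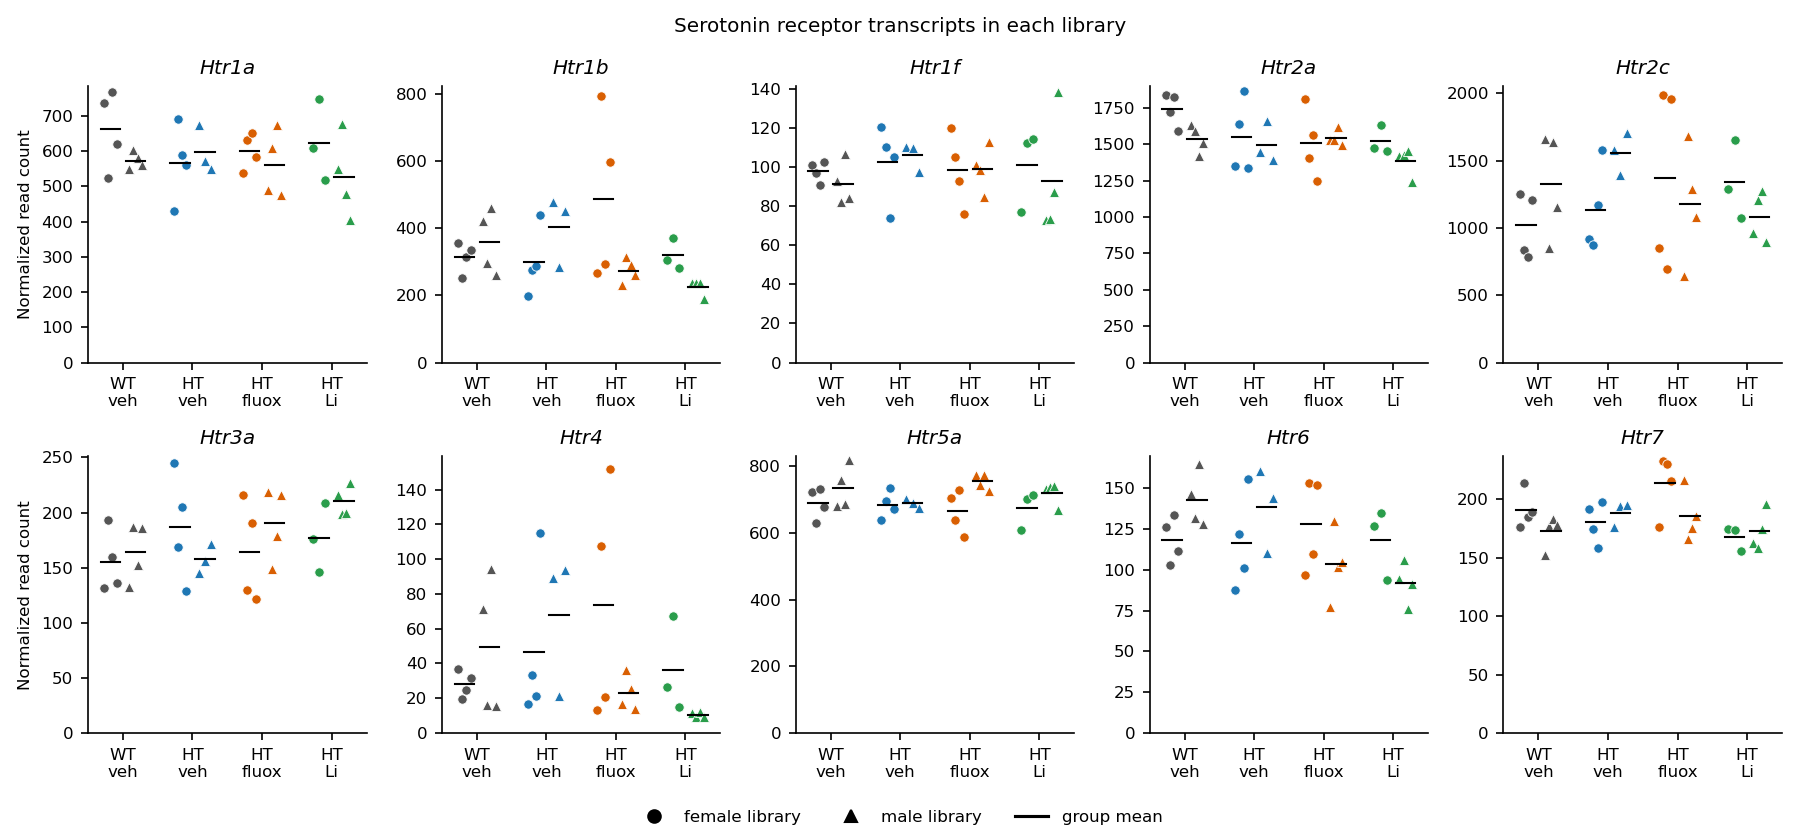
Normalized read count of each receptor (linear axis from 0) in every library, by condition and sex; circles are female and triangles male libraries, and bars are means of the 8 groups. Conditions overlap for each of the 10 receptors, while Htr4 ranges from 9.0 to 152 and Htr5a stays between 589 and 818.

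Among the inhibitory receptors, Htr1a, an autoreceptor of raphe neurons that is also postsynaptic in cortex, ranged from 524 to 767 (median 592) in WT vehicle and from 431 to 690 (573) in HT vehicle libraries. It ranged from 476 to 675 (596) with fluoxetine and from 406 to 747 (549) with lithium. The 4 conditions overlapped, although 3 of 7 lithium libraries lay below every WT vehicle library. The fold difference was 0.94 for genotype (95% interval 0.80 to 1.11), 0.999 for fluoxetine (0.85 to 1.17) and 0.98 for lithium (0.83 to 1.16), all on the log2(normalized count + 1) scale used for every fold here. Differences of Htr1a within these bounds are not excluded by these libraries.

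Htr1b, a receptor of axon terminals, gave counts of 357, 251, 315 and 334 in the 4 female and 422, 296, 461 and 261 in the 4 male libraries of WT vehicle, in the order of their numbers. For HT vehicle the females had 198, 274, 288 and 440 and the males 477, 284 and 452. Both genotypes held high libraries, up to 461 and 477, and low ones, down to 251 and 198, and their ranges overlapped. Fluoxetine females 1 to 4 gave 267, 793, 294 and 596, and fluoxetine males 1 to 4 gave 231, 313, 290 and 261. Lithium females 1 to 3 gave 305, 371 and 281, and lithium males 1 to 4 gave 236, 238, 238 and 190. Fluoxetine females 2 and 4 were the highest of all libraries and the lithium males were uniformly low, although other libraries shared that level. The fold was 1.02 for genotype (95% interval 0.76 to 1.37), 1.03 for fluoxetine (0.76 to 1.37) and 0.79 for lithium (0.58 to 1.07). Htr1b shares 852 exonic bases with D430036J16Rik on the opposite strand. The labels name a stranded mRNA kit, but no source used here says how strand was handled in counting. The count of Htr1b may therefore hold reads of that gene.

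Htr1f, a low-abundance inhibitory receptor, ranged from 82.2 to 107 in WT vehicle, 74.1 to 121 in HT vehicle, 76.0 to 120 in fluoxetine and 73.0 to 138 in lithium libraries. Its fold was 1.09 for genotype (0.91 to 1.32), 0.95 for fluoxetine (0.79 to 1.14) and 0.91 for lithium (0.75 to 1.11). Htr5a gave the tightest bounds of the family. It ranged from 631 to 818 in WT vehicle, 638 to 734 in HT vehicle, 589 to 774 in fluoxetine and 608 to 742 in lithium libraries. The fold of Htr5a was 0.97 for genotype (0.90 to 1.04), 1.03 for fluoxetine (0.96 to 1.11) and 1.01 for lithium (0.94 to 1.09). Of the 10 receptors Htr5a had the narrowest interval in these 3 comparisons.

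Of the Gq-coupled receptors, Htr2a, the cortical target of serotonergic hallucinogens, ranged from 1420 to 1839 (median 1613) in WT vehicle and from 1341 to 1870 (1445) in HT vehicle libraries. It ranged from 1248 to 1811 (1532) with fluoxetine and from 1240 to 1630 (1452) with lithium. HT medians lay below the WT median in each treatment, with wide overlap. The fold was 0.93 for genotype (95% interval 0.84 to 1.02), 1.002 for fluoxetine (0.91 to 1.11) and 0.96 for lithium (0.86 to 1.06). Against WT vehicle, HT lithium libraries stood at 0.89-fold (0.80 to 0.98), with an unadjusted p of 0.020 and an adjusted p of 0.20 with limma, which did not pass. In that comparison 2 of 10 receptors, Htr2a and Htr6, had an unadjusted p under 0.05, beside 17.7% of all genes, and 0 were called, beside 1.97%. HT fluoxetine against WT vehicle gave 0 receptors at either level, beside 12.1% and 1.49% of all genes. Neither of these last comparisons separates drug from genotype.

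Htr2c, a receptor whose transcript is edited by adenosine deaminases, ranged from 786 to 1661 (median 1183) in WT vehicle and from 872 to 1702 (1395) in HT vehicle libraries. It ranged from 644 to 1986 (1185) with fluoxetine and from 892 to 1651 (1207) with lithium. Both the lowest and the highest library of all 30 were fluoxetine libraries, male 1 and female 2. The fold was 1.16 for genotype (0.82 to 1.63), 0.89 for fluoxetine (0.63 to 1.26) and 0.91 for lithium (0.64 to 1.30). Editing cannot be read from gene counts and was not analysed here.

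Of the Gs-coupled receptors, Htr4 had the largest estimates and the widest intervals. The females of WT vehicle had 36.8, 19.8, 24.9 and 31.4, and the males 71.2, 16.3, 94.1 and 15.5. HT vehicle females 1 to 4 gave 16.5, 33.2, 21.0 and 115, and HT vehicle males 1 to 3 gave 89.2, 21.1 and 93.9. High and low libraries therefore occurred side by side within 3 of these 4 groups. Fluoxetine females 1 to 4 gave 13.2, 107, 21.0 and 152, and males 1 to 4 gave 16.7, 36.1, 25.4 and 14.1. Lithium females 1 to 3 gave 26.3, 67.3 and 14.8, and males 1 to 4 gave 11.7, 9.31, 12.3 and 9.0. All 4 lithium males lay below every library of other groups, of which the lowest was at 13.2, while the lithium females overlapped the vehicle libraries. The lithium males rest on 8 to 13 reads each. The share of all genes for which 1 group stands apart in this way was not computed. The fold was 1.37 for genotype (0.64 to 2.97), 0.73 for fluoxetine (0.34 to 1.58) and 0.42 for lithium (0.19 to 0.93). For lithium the log2 difference was -1.25 with an SE of 0.56, an unadjusted p of 0.034 and an adjusted p of 0.87 with limma, so it was not called. Leaving out HT lithium male 4 and HT vehicle female 1 gave -1.39.

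Htr6, a receptor expressed almost only in the brain, ranged from 103 to 165 (median 130) in WT vehicle and from 87.8 to 161 (122) in HT vehicle libraries. It ranged from 77.4 to 153 (107) with fluoxetine and from 75.8 to 135 (94.4) with lithium. The fold was 0.96 for genotype (0.80 to 1.17), 0.91 for fluoxetine (0.75 to 1.09) and 0.83 for lithium (0.68 to 1.01). Medians were lower with either drug than with vehicle, and the ranges overlapped. HT lithium against WT vehicle gave 0.80-fold for Htr6 (0.66 to 0.97), with an adjusted p of 0.21 with limma.

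Htr7, a receptor implicated in circadian and thermal control, ranged from 152 to 214 (median 180) in WT vehicle and from 158 to 198 (192) in HT vehicle libraries. It ranged from 166 to 233 (201) with fluoxetine and from 156 to 196 (174) with lithium. Its fold was 1.02 for genotype (0.91 to 1.13), 1.08 for fluoxetine (0.97 to 1.2) and 0.92 for lithium (0.83 to 1.03). Between the drugs, HT fluoxetine stood at 1.17-fold of HT lithium (1.05 to 1.29), with an unadjusted p of 0.0060 and an adjusted p of 0.59 with limma. Htr7 was the 1 of 10 receptors with an unadjusted p under 0.05 between the drugs, beside 6.86% of all genes. In that comparison limma called 0 of 16824 genes, 0%, with 1154 below an unadjusted 0.05. Of all genes, 0 passed with edgeR and 13 with DESeq2. Ranges of the drugs did not separate for any receptor, and did for 0.0594% of all genes.

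Htr3a, the channel subunit, ranged from 132 to 193 (median 156) in WT vehicle and from 129 to 245 (169) in HT vehicle libraries. It ranged from 122 to 219 (185) with fluoxetine and from 146 to 227 (200) with lithium. The medians were ordered WT vehicle, HT vehicle, fluoxetine, lithium from low to high, all with overlapping ranges. The fold was 1.07 for genotype (0.88 to 1.30), 1.02 for fluoxetine (0.84 to 1.25) and 1.13 for lithium (0.93 to 1.39).

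**Figure D3:**
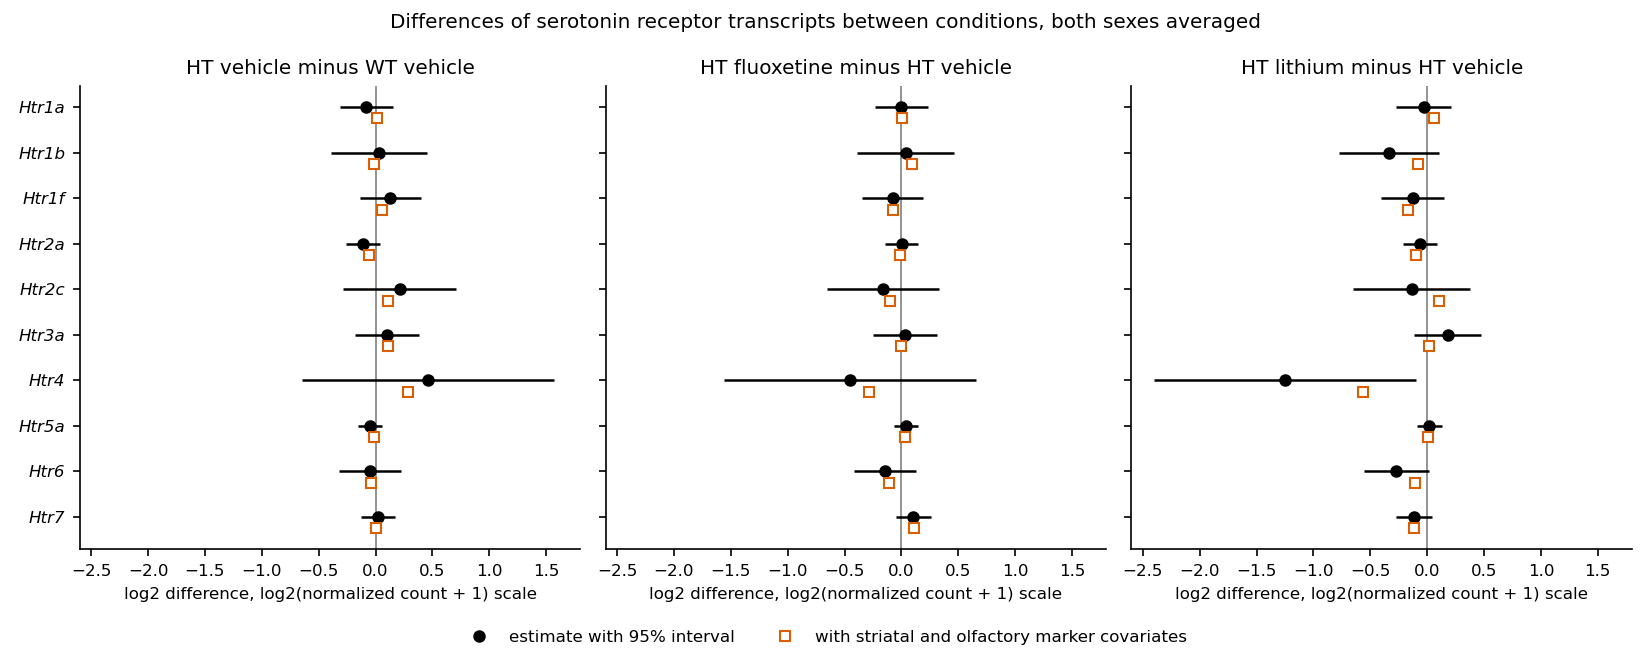
Log2 differences of each receptor for genotype, fluoxetine and lithium, both sexes averaged, on the log2(normalized count + 1) scale; circles with lines are estimates with 95% intervals, and open squares are estimates from the fit with striatal and olfactory marker scores as covariates. Intervals include 0 except that of Htr4 under lithium (-2.40 to -0.10), whose estimate of -1.25 became -0.56 with the covariates.

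Estimates differed between the sexes for several receptors, without a call. Of the 10 receptors, 0 were called between males and females, beside 0.214% of all genes. Htr5a alone had an unadjusted p under 0.05 (8.05% of all genes), at 1.07-fold in males over females (1.02 to 1.12) and an adjusted p of 0.43 with limma. The tests of a sex difference in the response called 0 of all genes with limma for genotype, fluoxetine or lithium, while 345, 1002 and 1684 genes lay below 0.05 before adjustment. With edgeR 0 genes passed in each, and with DESeq2 0, 1 and 0. At that unadjusted level stood 0 receptors for genotype (2.05% of all genes) and Htr1b and Htr6 both for fluoxetine (5.96%) and for lithium (10%). For Htr1b under fluoxetine the log2 difference was 0.61 in females and -0.53 in males. The difference between the sexes was -1.14 with an SE of 0.41 and an adjusted p of 0.78 with limma. Htr4 under lithium gave -2.32 in males and -0.19 in females, a difference of -2.13 with an SE of 1.11 and an adjusted p of 0.50. Htr6 under lithium gave -0.58 in males and 0.04 in females.

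Several receptors were high or low in the same libraries as the striatal markers. For each library a score was taken as the mean over the 16 striatal genes of their standardized log2 values. Over the 30 libraries Pearson's r with this score was 0.96 for Htr4, 0.92 for Htr1b, 0.81 for Htr6 and 0.81 for Htr2c, and -0.83 for Htr3a. Spearman's rho was 0.83, 0.80, 0.74, 0.76 and -0.79 in the same order. Leaving out the 2 libraries farthest from the median score gave r of 0.95, 0.90, 0.80, 0.76 and -0.79. The permutation p of each r was 1e-05, the smallest that 100000 permutations can give, and 7.22e-05 after Benjamini-Hochberg adjustment over 130 relations of 10 receptors and 13 marker lists. Within groups, after each group's mean was removed, r was 0.98 for Htr4, 0.92 for Htr1b, 0.82 for Htr6, 0.83 for Htr2c and -0.84 for Htr3a. Htr5a was weakly and inversely related (r = -0.49, rho = -0.46, permutation p = 0.00643, adjusted p = 0.0171, and r = -0.30 without 2 libraries). Htr1a (r = 0.31), Htr2a (-0.32), Htr7 (0.21) and Htr1f (0.05) did not pass, with adjusted permutation p from 0.135 to 0.850. Within groups, r for Htr2a was -0.52.

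The relation was also described in the 15 libraries with the lower and the 15 with the higher striatal scores. In the 15 libraries with the lower scores Htr4 was 9.0 to 21.1, and in the 15 with the higher scores 24.9 to 152, without overlap. Within the higher 15, r with the score was 0.95 for Htr4, 0.91 for Htr1b, 0.86 for Htr2c and 0.81 for Htr6. Receptors with negative values there were Htr2a (r = -0.76), Htr3a (-0.64), Htr1a (-0.55) and Htr5a (-0.55), while Htr7 had 0.54 and Htr1f 0.10. Within the lower 15, r was -0.27 for Htr4, -0.11 for Htr1b, 0.29 for Htr2c and -0.07 for Htr6. It lay between -0.19 and 0.29 for the other receptors. Scores of the lower 15 spanned only -0.85 to -0.69, too little for r to show whether the relation held there. Scores ran from -0.85 to 2.03 with no gap wider than 0.41. The highest belonged to HT fluoxetine females 4 and 2 and the next to HT vehicle female 4, WT vehicle male 3 and HT vehicle males 3 and 1. All 4 HT lithium males were among the lower 15. Their summed striatal markers were 8679 to 9290, against 9861 to 34329 in the HT vehicle males. Of the striatal markers, Isl1 and Six3 were at 0 in some libraries, while Drd1 was 100 or more and Gpr6 34.0 or more in every library.

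**Figure D4:**
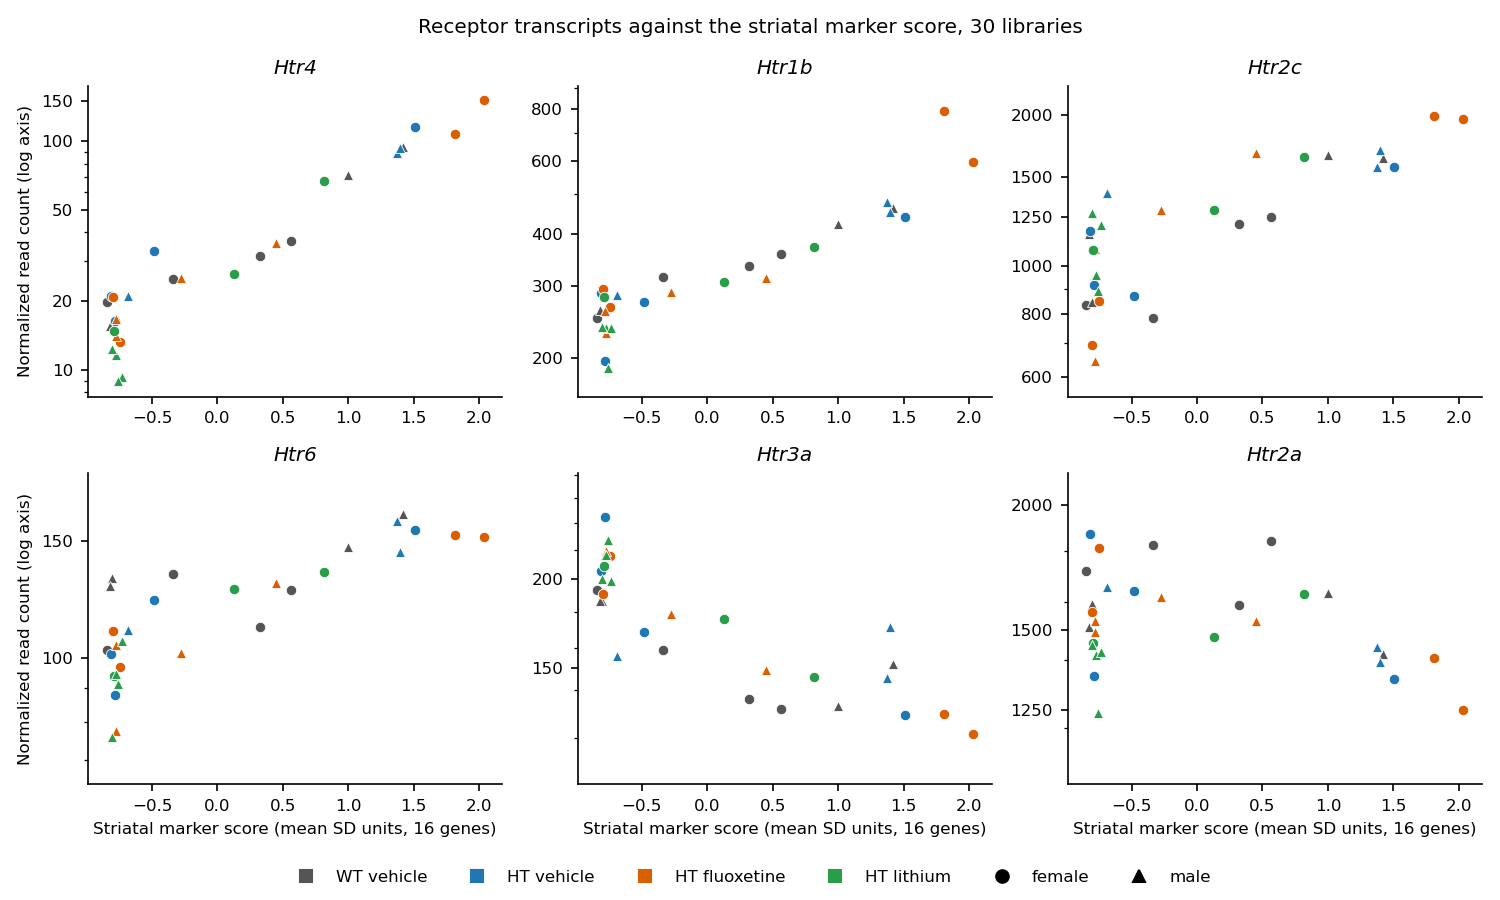
Normalized read count (log axis) of 6 receptors against the striatal marker score, with colours for conditions and symbols for sexes, 30 libraries. Htr4, Htr1b, Htr2c and Htr6 are high and Htr3a is low where the score is high, while Htr2a has r of -0.32.

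No striatal marker was called for genotype, fluoxetine or lithium, but their estimates leaned one way in each. The markers share their libraries, so the signs counted here are not independent observations. Median sums of the striatal markers were 13883 in WT vehicle, 10288 in HT vehicle, 11008 in HT fluoxetine and 9137 in HT lithium libraries. For genotype and fluoxetine these medians ran against the sign of the estimates. Under lithium the difference was negative for 16 of 16 striatal markers, with a median log2 difference of -0.67, where Htr4, Htr1b and Htr6 were at -1.25, -0.34 and -0.27. For fluoxetine 15 of 16 were negative (median -0.22), where Htr4 was at -0.45, Htr6 at -0.14 and Htr1b at 0.04. For genotype 16 of 16 were positive (0.23), where Htr4 was at 0.46, Htr1b at 0.03 and Htr6 at -0.05. Htr2c was at -0.14 under lithium, -0.16 for fluoxetine and 0.21 for genotype. In the fit with striatal and olfactory marker scores as covariates, the SE of the Htr4 lithium difference was 0.14 in place of 0.56. The difference itself was -0.56, with an unadjusted p of 4.8e-04 and an adjusted p of 0.21 with limma. For Htr1b it was -0.08 in place of -0.34, for Htr6 -0.10 in place of -0.27 and for Htr3a 0.01 in place of 0.18. Not all estimates shrank. The median absolute log2 difference over the receptors rose for fluoxetine, to 0.085 from 0.060. It fell for genotype, to 0.048 from 0.091, and for lithium, to 0.10 from 0.13. The sex difference in the response was -0.33 for Htr4 under lithium and -0.44 for Htr1b under fluoxetine, in place of -2.13 and -1.14. No receptor was called in this fit either. The adjusted p nearest to the threshold over all settings was 0.070, for Htr2a in HT lithium against WT vehicle with the striatal score alone as a covariate (log2 difference -0.21).

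The striatal list was not alone in these relations. With the 8 oligodendrocyte markers r was 0.82 for Htr4, 0.77 for Htr6, 0.76 for Htr1b and -0.78 for Htr3a, and with the claustrum and deep layer markers, which share Drd1 with the striatal list, 0.80, 0.66, 0.70 and -0.74. These 8 relations had adjusted permutation p of 4.33e-04 or less. Htr2c was related to the claustrum markers (0.76) and more closely to the oligodendrocyte markers (r = 0.87, rho = 0.88, permutation p = 1e-05, adjusted p = 7.22e-05, and r = 0.85 without 2 libraries). Those markers summed to 54046 to 141878. With the choroid plexus markers, of which 4 were tested, r was 0.64 for Htr2c, 0.65 for Htr4, 0.65 for Htr1b and -0.56 for Htr3a. The adjusted permutation p of each was 0.00348 or less, while Htr6 (r = 0.39) had 0.0567. Choroid plexus markers were low, summing to 96.7 to 593. Htr1a, Htr2a and Htr5a were related to the excitatory neuron markers. For Htr1a r was 0.71 (rho = 0.74, permutation p = 3e-05, adjusted p = 1.86e-04, and r = 0.70 without 2 libraries). For Htr2a r was 0.72 (rho = 0.66, permutation p = 1e-05, adjusted p = 7.22e-05, and r = 0.60 without 2 libraries). For Htr5a r was 0.50 (rho = 0.45, permutation p = 0.00486, adjusted p = 0.0134, and r = 0.40 without 2 libraries). Htr1a was inversely related to the meningeal fibroblast markers (r = -0.81, rho = -0.80, permutation p = 1e-05, adjusted p = 7.22e-05, and r = -0.71 without 2 libraries), which summed to 13988 to 52412. With the olfactory bulb and neuroblast markers r was -0.79 for Htr1a, -0.79 for Htr6, -0.68 for Htr1b, -0.65 for Htr4 and 0.72 for Htr3a. The adjusted permutation p of each was 8.23e-04 or less. Htr3a was positively related to the inhibitory neuron markers (r = 0.60, rho = 0.61, adjusted permutation p = 0.00204). With that list Htr1b, Htr2c, Htr4 and Htr6 had r from -0.66 to -0.59. The relation of Htr3a was not particular to inhibitory markers. Its r was similar with meningeal fibroblast (0.60), endothelial and mural (0.59), astrocyte (0.56) and raphe (0.52) markers. The points of all these relations share their library, and so its depth and its dissection.

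**Figure D5:**
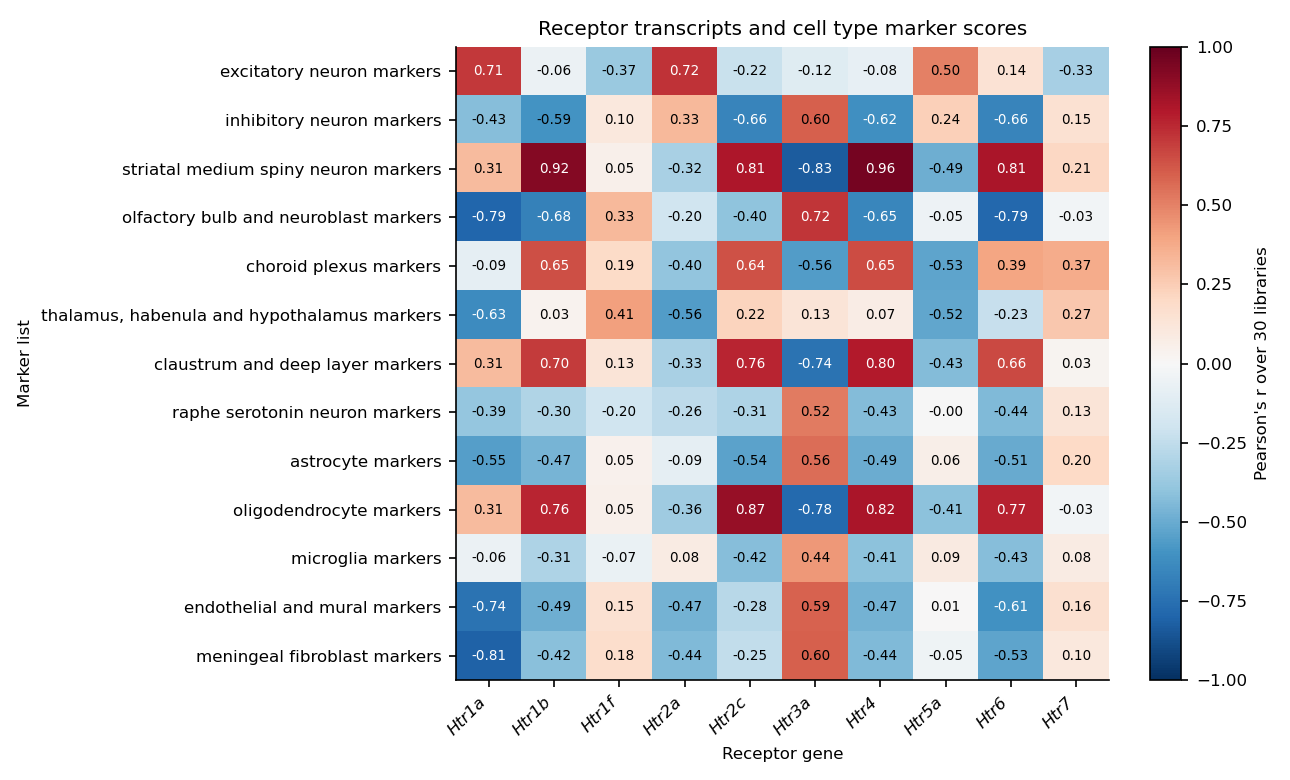
Pearson's r over 30 libraries between each receptor (columns) and the score of each marker list (rows), from -1 in blue to 1 in red. Htr1b, Htr2c, Htr4 and Htr6 share a positive column pattern with striatal and oligodendrocyte markers, Htr3a has the opposite one, and Htr1a and Htr2a are highest with excitatory neuron markers.

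Between receptors, the closest pair was Htr1b and Htr4, with r = 0.92 over the 30 libraries and 0.92 within groups. Htr6 followed Htr4 (0.83) and Htr1b (0.83), and Htr2c followed Htr1b (0.75), whereas Htr3a ran against Htr1b (-0.83). These are descriptions over libraries that share the same dissections.

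The genes most like each receptor were sought among 12902 genes by Pearson's r over 30 libraries, after each group's mean was removed. For Htr4 they were Gpr83 (0.97), Gpr6 (0.97) and Lrrc10b (0.97), of which Gpr6 is one of the striatal markers. Those of Htr1b were Strn (0.97), Gnal (0.96) and Gprin3 (0.96), where Gnal encodes the G protein that carries stimulatory signals in striatum and olfactory epithelium. Htr2c was closest to Lmo3 (0.95), Hs6st2 (0.93) and Klhl13 (0.92), and Htr6 to Entpd3 (0.90), Pigs (0.89) and Wnt2 (0.89). Htr1a was closest to Parm1 (0.92), Diras2 (0.92) and Wdr7 (0.91). Htr2a was closest to Kcnh7 (0.91), Prkaa2 (0.90) and Kcnv1 (0.90), of which Kcnh7 and Kcnv1 encode potassium channel subunits. Htr3a came closest to Pitpnm3 (0.92), Bmp1 (0.89) and Parva (0.89), and Htr5a to Sntg1 (0.83), March1 (0.82) and Ypel1 (0.82). Likeness was lower for Htr1f, with Aldh16a1 (0.78), Pskh1 (0.76) and Hs3st5 (0.76), and for Htr7, with Ctsf (0.74), Lgals9 (0.73) and Eci1 (0.67).

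The rest of the serotonin system gave no call either for genotype, fluoxetine or lithium. Of 4 further receptor genes Htr1d and Htr5b were tested, and Htr2b and Htr3b were not analysed here. Htr1d, an inhibitory receptor related to Htr1b, ranged from 7.98 to 177, and its r with the striatal score was 0.85. Its fold was 1.41 for genotype (0.65 to 3.04), 0.71 for fluoxetine (0.33 to 1.53) and 0.74 for lithium (0.33 to 1.64). Htr5b was low in all libraries, at 8.01 to 40.6, and its fold was 1.02 for genotype (0.71 to 1.48), 1.03 for fluoxetine (0.71 to 1.48) and 1.188 for lithium (0.81 to 1.74).

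Of 15 genes for serotonin synthesis, transport and breakdown, 13 were tested and 0 were called in these 3 comparisons; the transporter Slc6a4, the target of fluoxetine, and Fev were not analysed here. Maoa and Maob, the monoamine oxidases, were steady, at 838 to 996 and 515 to 640 over all libraries. Maoa differed by -0.05 (log2) for fluoxetine with an SE of 0.04, and Maob by -0.04 with an SE of 0.05. Tph2, the tryptophan hydroxylase of neurons, was listed at 13.4 to 30.1 and Tph1, the peripheral form, at 6.26 to 19.98. For Tph1 the fluoxetine difference was -0.57 (log2) with an SE of 0.19, at a mean of 10.3 with fluoxetine and 14.99 with vehicle; its unadjusted p was 0.0069 and its adjusted p 1 with limma. Gch1, which makes the cofactor of these hydroxylases, differed by 0.20 with an SE of 0.17. These low counts rest on as few as 6 reads in a library for Tph1.

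All 30 genes of G protein subunits and effectors and all 31 of receptor regulation, trafficking and editing were tested, and 0 were called for genotype, fluoxetine or lithium. Median log2 differences for fluoxetine were -0.01 and -0.02, beside 0.00 for all genes. Gnai1, an inhibitory G protein subunit, differed by -0.07 for fluoxetine with an SE of 0.04, and Gnaz by -0.05 with an SE of 0.06. Adcy9, an adenylyl cyclase, differed by 0.07 for fluoxetine and by -0.19 for lithium (SE 0.07 and 0.08). Kcnj5, a subunit of G protein-gated potassium channels, differed by 0.63 with an SE of 0.53 at means of 20.3 and 13.7. Of the regulatory genes, Fkbp4, a chaperone partner, differed by -0.06 (SE 0.04), Hes5 by -0.14 (SE 0.11) and Ywhae by -0.03 (SE 0.03). Deaf1, a regulator described at the Htr1a promoter, differed by -0.04 (SE 0.05). All of these fluoxetine values had an adjusted p of 1 with limma.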

How the data were processed

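The deposited table gives, for each gene and library, a signal that its values show to be read counts scaled by a size factor. The submitters' processing notes name Salmon 0.11.2, R 3.6.0, DESeq2 1.19.11 and build GRCm38, and the labels name a stranded mRNA kit. Every column was a whole multiple of its own step (within 0.01 for 100% of values), and these multiples were taken as reads; in 2 columns the step lay within 0.5% of 1. Replicates were compared in 42 pairs, whose chi-square was 4.79 to 31.9 times its degrees of freedom, and each library counted once. The labels do not divide the libraries into batches, so no batch could be fitted, and sample titles gave the groups.

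Symbols, exon lengths and gene coordinates came from GENCODE M21, which matched 18227 of 18240 genes. With limma 3.58.1 (trend, robust; R 4.3.3), group means were fitted to log2(normalized count + 1) in the 30 libraries, keeping the 16824 genes that averaged 10 or more. Comparisons averaged both sexes; Benjamini-Hochberg adjustment covered every tested gene, with calls at 0.05. This scale understates changes of low genes. edgeR 4.0.16 and DESeq2 1.42.0 took the recovered reads. The fitting was tested on simulated data. Correlations used 100000 permutations. Other settings are in the closing section.

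The receptors and all lists were chosen with earlier results of these data known. Beyond the 10 receptors, the genes named are the other receptors, Slc6a4, Tph2, Maoa, Maob, the 4 genes per serotonin list with the smallest p for fluoxetine, and the 3 genes most like each receptor (averaging 50 or more, predicted genes left out). Fev, Adcy9 under lithium and single markers were named after their values were seen. Marker lists covered excitatory, inhibitory, striatal, olfactory, choroid plexus, thalamic, claustral, raphe, astrocyte, oligodendrocyte, microglial, endothelial and meningeal cells.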

Additional observations from a re-analysis of the deposited data

Results flagged for a closer look

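Each receptor, and Htr1d and Htr5b, was examined for a library far from the others in every group of 4, which made 72 gene and group combinations; 4 stood out, and chance gives about 1 in 20. Of these, 3 belonged to HT lithium male 4. Htr1b was 190 there, below 236 to 238 in the other HT lithium males. Htr2a was 1240, below 1418 to 1452. Htr5a was 669, below 731.5 to 742. The last was Htr4 in HT vehicle female 4, at 115, above 16.5 to 33.2 in the other HT vehicle females; that library had the highest striatal marker score of its group, 1.51. HT lithium male 4 had the lowest excitatory marker score of all libraries, -1.69 against -1.12 to 0.87 in the others. The part of these marker levels in the receptor values was not tested.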

How the results depend on the processing

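No receptor was called under any setting: pseudocounts of 0.5 and 5, no filter, a mean of at least 50 (which leaves out Htr4), TMM scaling, edgeR, DESeq2, only the compared groups, the replicate block, marker covariates, HT vehicle female 1 and HT lithium male 4 both left out, and without each replicate in turn. The striatal score alone was added after seeing the data. Signs of receptor estimates, none called, changed in 99 of 1640 values when a replicate was left out, in 22 of 100 with both marker covariates and in 15 of 100 with the striatal score alone. They changed in 7 of 100 with both these libraries left out and in 2 of 100 each with edgeR, DESeq2 and the block.

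Counts of all genes called moved more. For genotype, 123 became 68 at a mean of at least 50, 246 with both covariates and 196 with the striatal score alone. For fluoxetine, 6 became 12 with DESeq2, 11 with only the compared groups and 13 with both covariates. For lithium, 15 became 5 with only the compared groups. Between the drugs, 0 became 13 with DESeq2, 11 with both covariates and 1 with the striatal score. HT fluoxetine against WT vehicle gave 165 at a mean of at least 50 and 501 with both covariates, in place of 251. HT lithium against WT vehicle gave 208 with only the compared groups in place of 332. Between the sexes, 36 became 79 with DESeq2, 143 with both covariates and 78 with the striatal score, and the sex difference under fluoxetine gave 1 with DESeq2. At a mean of at least 50 and with only the compared groups, fewer genes or libraries were tested; otherwise the cause was not tested. Without each replicate in turn the counts were 88 to 116 for genotype, 3 to 7 for fluoxetine, 8 to 16 for lithium, 0 to 4 between the drugs, 176 to 267 and 196 to 503 for HT fluoxetine and HT lithium against WT vehicle, 28 to 52 between the sexes and 0 to 2 for the sex difference under lithium. Counts moved past 1.5 times on leaving out single libraries. The fluoxetine count fell to 3 without HT vehicle female 2, female 4, male 1 or male 2, or HT fluoxetine female 2, female 4, male 2 or male 4. For lithium, leaving out HT lithium female 1 gave 8 and leaving out HT lithium male 3 gave 9. The count for HT lithium against WT vehicle was 219 without WT vehicle female 3, 196 without HT lithium female 3 and 503 without HT lithium male 2. Without HT lithium female 1 the drugs gave 4 and the sex difference under lithium 2, and the latter gave 1 without HT vehicle female 4.

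Replicate numbers did not pair the libraries consistently: over 27 same-numbered pairs the correlation of deviations ran from -0.43 to 0.45, over 0.1 in 10. Between HT fluoxetine and HT vehicle females it was 0.41, -0.11, 0.39 and 0.45. The numbers are those of the sample titles, which differ from the library names for some HT lithium females. With the replicate block, genotype gave 117 genes, fluoxetine 7, lithium 14, HT fluoxetine against WT vehicle 222, HT lithium against WT vehicle 338 and sex 29, the remaining comparisons 0, and the block changed no receptor's call. Counting limits Htr4 most, at 8 to 160 reads a library. Intervals cover the spread between libraries and are not limits of detection, because calls rested on p adjusted over all tested genes. Htr4 under lithium was not called although its interval left out 0.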
